A study of Homo sapiens with 12 samples.

Results

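MGMT is the gene of the DNA repair enzyme that takes alkyl groups off the O6 position of guanine, and it was followed here through its peaks of trimethylated lysine 9 on histone H3 (H3K9me3). Its members are the peaks that the authors' gene column assigns to MGMT (ENSG00000170430), 19 in the list of SMARCA3 knockout (KO) 293T cells and 19 in the list of wild-type (WT) 293T cells. They stand beside all other peaks within 500 kb of the gene, 40 in KO and 32 in WT, out of 65170 KO and 46898 WT peaks in all. The 293T line comes from human embryonic kidney and expresses the SV40 large T antigen, and SMARCA3, now called HLTF, encodes a RING finger protein of the SWI/SNF family that moves along DNA. The labels name the genotypes SMARCA3_KO and WT and do not say whether the knockout is 1 clone. Each genotype has 3 ChIP and 3 input libraries, called biological triplicates, and 1 peak list, with no column per library. No difference between the genotypes could therefore be set against the spread between replicates, no p-value was computed, and the depth of the libraries is unknown here. The design asks whether the mark differs between the genotypes, and the study's title places the question in colorectal cancer.

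The MGMT protein works once. It moves the alkyl group from guanine to a cysteine of its own and is then degraded, so the level of the protein sets how much of this damage a cell can reverse. In colorectal cancer and in glioma the gene is known for silencing by DNA methylation of the CpG island at its promoter, and glioma cells without the protein respond better to alkylating drugs such as temozolomide. H3K9me3 is laid down by SETDB1 and the SUV39H enzymes, is bound by HP1 proteins and marks constitutive heterochromatin and silenced repeats. In 293T cells the peak lists show where the mark was called, not whether MGMT was transcribed.

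On hg38 the authors' lists place MGMT on the plus strand of chromosome 10 from 129467184 to 129768007, a span of 300824 bp that joins 2 transcripts. A shorter transcript runs from 129467262 to 129537164. RefSeq (GRCh38.p14) gives the gene from 129467241 to 129770983. Exon positions were not used here, so peaks are given by their distance from the first gene start, 129467184. The sequence just before that start is shown because it is the place where neither list has a peak. It covers chr10:129466991-129467183 on the plus strand (RefSeq, GRCh38.p14), 193 bases with 28 CpG dinucleotides in capitals.
MGMT: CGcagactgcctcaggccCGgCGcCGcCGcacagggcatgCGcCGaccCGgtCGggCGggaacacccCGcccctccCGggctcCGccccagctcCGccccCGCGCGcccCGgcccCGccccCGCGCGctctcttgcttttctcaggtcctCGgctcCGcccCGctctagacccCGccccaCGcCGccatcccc
The RefSeq promoter window of MGMT, from 250 bases before to 50 after the RefSeq start, held 45 CpG and 78.7% G and C. Of 35116 promoter windows of the same length, 3.48% held at least as many CpG, with a median of 14, and 4.02% had at least as much G and C. The GC box GGGCGG, read on both strands, occurred 8 times in the window, 7 of them in the printed stretch, and 45% of all windows held at least 1. Neither TATAAA nor CCAAT, also read on both strands, was found in the MGMT window. TATAAA was present in 11.5% and CCAAT in 34.6% of all windows. These letters describe the sequence only.

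The promoter had no H3K9me3 peak in either genotype, and every MGMT peak lay in the gene body by the authors' classes. Those classes take in as promoter whatever lies up to 3 kb from a transcript start, and none of the 19 KO and none of the 19 WT peaks fell in them. They hold 9.71% of all KO and 8.23% of all WT peaks. No peak lay within 10 kb of the gene start in KO or in WT. Inside the gene the next peak began 13.0 kb from the start in KO and 14.7 kb from it in WT. On the upstream side the nearest peak ended 14.6 kb before the gene start in KO (129452154 to 129452605, fold enrichment 3.43) and 109.6 kb before it in WT (129356788 to 129357576, fold enrichment 5.59). The stretch around the promoter without a peak was thus 27.5 kb in KO and 124.3 kb in WT, and that KO peak of 452 bp, which met no WT peak, accounts for most of the difference. A body with many peaks and a promoter with none was common. Of the 301 protein-coding genes with at least 10 peaks in each list, 150 (49.8%) had no promoter peak in either list, 142 had one in KO and 120 in WT.

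**Figure D1:**
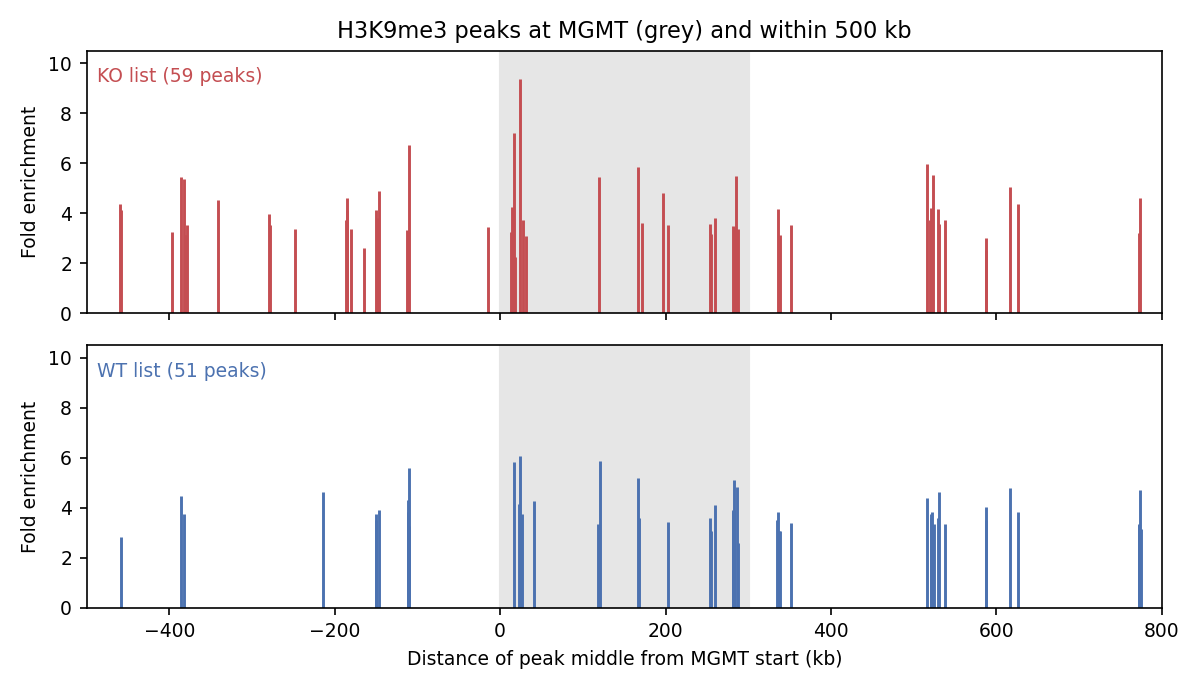
Fold enrichment (the authors' value for each peak) against the distance of the peak's middle from the MGMT start in kb, for the KO list above and the WT list below. Grey marks MGMT. The KO peaks inside the gene reach 9.38 and the WT peaks 6.06, and both lists leave the gene start and the stretch between 41.2 and 117.7 kb empty.

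Within the gene, KO and WT had the same number of peaks, but the KO peaks were wider. The 19 KO peaks covered 28507 bases and the 19 WT peaks 17558 bases, so the KO over WT ratio was 1.00 in peaks (95% interval 0.535 to 1.87) and 1.62 in bases. In all chromosomes these ratios were 1.39 and 1.59, and on chromosome 10 they were 1.18 and 1.39. Intervals are Wilson intervals, which cover the counting of peaks only and treat neighbouring peaks as independent. Widths ran from 280 to 5347 bp in KO, with a median of 751 and a mean of 1500.4 bp, and from 270 to 3436 bp in WT, with a median of 452 and a mean of 924.1 bp. The 2 ranges overlap over most of their length. The ratio of mean widths was 1.62, where all chromosomes gave 1.14. The other peaks within 500 kb of the gene gave 1.6, with 1.51 upstream and 1.86 downstream. Wider KO peaks were thus not particular to MGMT in its neighbourhood. Peaks wider than 1 kb numbered 8 of 19 in KO (42.1%, 23.1 to 63.7) and 5 of 19 in WT (26.3%, 11.8 to 48.8), beside 22.7% of all KO and 18% of all WT peaks. Among the other peaks within 500 kb they made up 42.5% in KO and 15.6% in WT. Peaks covered 9.48% of the gene in KO and 5.84% in WT.

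The peaks of both lists fell into 6 clusters along the gene when peaks within 10 kb of each other were joined, a distance chosen after seeing the data. KO had more bases than WT in all 6. Clusters of other genes were not counted, and 93.7% of the 301 protein-coding genes with at least 10 peaks in each list had more KO bases. The count of clusters is therefore not read as particular to MGMT. Joined at 5 kb there were 7 clusters, and the lone WT peak at 40.8 kb then formed one with 0 KO and 367 WT bases. The cluster closest to the promoter, from 13.0 to 41.2 kb, held 7 KO peaks with 11530 bases and 5 WT peaks with 7300 bases, 40.4% of the KO and 41.6% of the WT bases of the gene. The cluster at the far end, from 280.4 to 288.1 kb, held 4 KO peaks with 7090 bases and 6 WT peaks with 4087 bases. In this last cluster KO had fewer peaks and more bases than WT. The 4 clusters between them were smaller. The one at 117.7 kb was a lone KO peak of 4250 bases against 2 WT peaks with 3651 bases. At 166.0 kb there were 2 KO peaks with 2374 bases and 2 WT peaks with 1028 bases. At 197.1 kb there were 2 KO peaks with 1117 bases and 1 WT peak with 452 bases. The cluster at 254.0 kb had 3 peaks in each list, over 2146 bases in KO and 1040 in WT. The longest stretch inside the gene without a peak lay after the first cluster in both lists, 85.7 kb long in KO and 76.5 kb in WT. The difference between these stretches is set by a lone WT peak at 40.8 kb. The last 12.7 kb of the gene in KO and 13.4 kb in WT held no peak.

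By fold, the top peak of the gene lay in the first cluster in both lists. In KO the peak from 129488699 to 129494045 had a fold enrichment of 9.38 and a q-value of 1.5e-49, which placed it at rank 91 by fold and rank 252 by width among 64598 KO peaks on chromosomes 1 to 22, X and Y. It lay in the top 0.141% of that list by fold. The WT peak of highest fold in MGMT lay inside it, from 129490715 to 129492650, with a fold of 6.06 and a q-value of 4.0e-17, at rank 1025 of 46474 (top 2.21%). The neighbouring KO peak from 129481699 to 129485363 (3665 bp, fold 7.19, q-value 1.1e-30) met the widest WT peak of the gene, from 129481842 to 129485277 (3436 bp, fold 5.83, q-value 7.3e-18), at nearly the same edges. In WT the lowest q-value of the gene, 3.7e-18, belonged to a peak of the second cluster, from 129585954 to 129589270 (3317 bp, fold 5.86). Across the gene, folds ran from 2.23 to 9.38 in KO, with a median of 3.59, and from 2.61 to 6.06 in WT, with a median of 3.93. Most MGMT peaks were thus of ordinary strength in their lists, whose medians were 3.59 in KO and 3.77 in WT. A like fold did not go with a like q-value, either between the lists or within 1 list. In the KO flanks a peak of fold 3.12 had a q-value of 7.1e-05, while a peak of fold 3.13 had 8.3e-10. In the WT flanks 2 peaks of fold 3.53 had q-values of 4.0e-05 and 1.5e-06. At 202.5 kb a KO peak of fold 3.51 had a q-value of 5.9e-07 and the WT peak it meets, of fold 3.45, had a q-value of 4.0e-05. The order was the other way in the upstream flank, where a KO peak of fold 2.62 had a q-value of 3.5e-04, while a WT peak of fold 2.61 in MGMT had 4.0e-05. These few pairs do not measure a difference between the lists. Folds and q-values are given within each list and not compared between them, apart from common cutoffs used as alternatives. Such a cutoff on q need not select the same folds in both lists. A peak called in KO alone need not be a place without the mark in WT.

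Nearly every WT peak of MGMT met a KO peak, while 8 of the 19 KO peaks met no WT peak. Of the 19 WT peaks, 18 met a KO peak by at least 1 bp (94.7%, 75.4 to 99.1), beside 79.9% of all WT peaks. Of the 19 KO peaks, 11 met a WT peak (57.9%, 36.3 to 76.9), beside 50.6% of all KO peaks. Both intervals hold the share over all peaks. With both lists held to their common median fold (3.69) or more, 8 of 13 WT peaks met a KO peak (61.5%). The overlaps were often uneven in width, and 4 of 19 KO and 4 of 19 WT peaks (21.1% each) shared at least 50% of both peaks. No share over all peaks is given at this fold cutoff or this overlap. These values are therefore not read as particular to MGMT. KO peaks covered 93.6% of the WT peak bases of MGMT, beside 77.3% in all chromosomes. The exception on the WT side was the peak at 40.8 kb (129508012 to 129508378), 367 bp wide with a fold of 4.29 and a q-value of 8.4e-11. No KO peak lay within 1 kb of it. The 8 KO peaks that met no WT peak were narrow, from 280 to 759 bp, with folds from 2.23 to 4.82, and summed to 3966 bases. Of these, 5 lay in the first cluster and 4 lay within 1 kb of a WT peak. The one farthest from a WT peak, 4.6 kb away, was also the strongest of them, at 197.1 kb (129664290 to 129665040, 751 bp, fold 4.82, q-value 2.4e-14).

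Several KO peaks of MGMT lay over 2 or more WT peaks, and the reverse was found once, although this imbalance depended on how peaks were chosen. In MGMT 5 of 19 KO peaks met at least 2 WT peaks (26.3%, 11.8 to 48.8), beside 9.31% of all KO peaks. The share over all KO peaks lies below this interval, which treats neighbouring peaks as independent, and the difference was not tested. Among the 301 protein-coding genes with at least 10 peaks in each list, the median share was 14.3%, which lies inside the interval. In the opposite direction 1 of 19 WT peaks met at least 2 KO peaks (5.26%, 0.935 to 24.6), beside 6.5% of all WT peaks. These 5 KO peaks met 13 of the 19 WT peaks and made up 16108 bases, 56.5% of the KO bases of the gene. They spanned 8 gaps between WT peaks, the narrowest 52 bp and the widest 1037 bp. The KO peak of highest fold, 5347 bp wide, met 3 WT peaks with widths of 1078, 1936 and 483 bp, the last of which ran 125 bp past its end. At 280.4 kb a KO peak of 3130 bp (129747598 to 129750727) lay over 4 WT peaks of 369, 330, 785 and 331 bp, the most WT peaks under any KO peak of the gene. At 117.7 kb a KO peak of 4250 bp joined WT peaks of 334 and 3317 bp, and at 166.0 kb a KO peak of 1957 bp joined WT peaks of 651 and 377 bp. At the end of the gene, from 284.3 kb, the pattern was mixed. There a KO peak of 1424 bp (129753835 to 129755258) met WT peaks of 1963 and 309 bp, and the wider of these also met the KO peak of 2256 bp before it, across a gap of 78 bp between the KO peaks. When peaks of a list within 1 kb of each other were joined before counting, both lists had 11 regions in MGMT. At the common median fold, 1 KO peak met at least 2 WT peaks and 0 WT peaks met at least 2 KO peaks. At the common median q-value the counts were 1 and 1, and when peaks within 1 kb counted as meeting they were 9 and 8, so the imbalance was not found under these 2 alternatives.

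**Figure D2:**
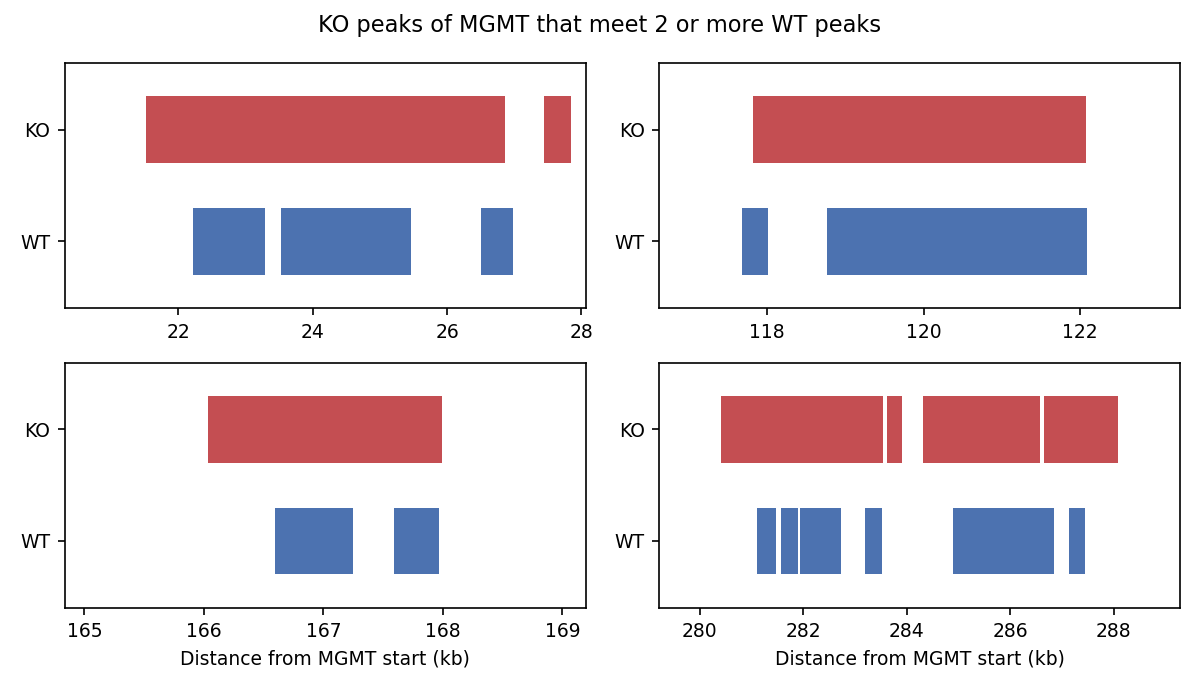
Peaks of MGMT around the 5 KO peaks that meet at least 2 WT peaks, drawn to scale against the distance from the MGMT start in kb, with KO peaks in the upper row and WT peaks in the lower row of each panel. The KO peaks span gaps of 52 to 1037 bp between WT peaks. In the last panel a WT peak of 1963 bp also spans a gap between KO peaks.

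KO peak bases can be split by where they lie relative to the WT peaks. In MGMT 16436 KO bases (57.7%) lay inside WT peaks and 3244 (11.4%) lay between WT peaks under the same KO peak. A further 4861 (17.1%) lay outward of the outermost WT peak met, and 3966 (13.9%) belonged to KO peaks that met none. In all chromosomes these shares were 48.7%, 3.76%, 17.6% and 29.9%. MGMT thus had a higher share between WT peaks and a lower share in separate KO peaks than all chromosomes, differences that were not tested. The 500 kb downstream differed from all chromosomes in the same directions, with 8.54% and 1.57%. The 500 kb upstream differed in the opposite directions, with 2.29% and 45%. Where KO and WT peaks met they formed 10 groups of overlapping peaks with 20 outer edges. KO reached further out at 14 edges and WT at 6, with a median of 114.5 bp in favour of KO. No count of edges over all chromosomes is given here, so these counts are not read as particular to MGMT. WT reached further at both edges in 2 groups, at 117.7 and 254.0 kb.

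**Figure D3:**
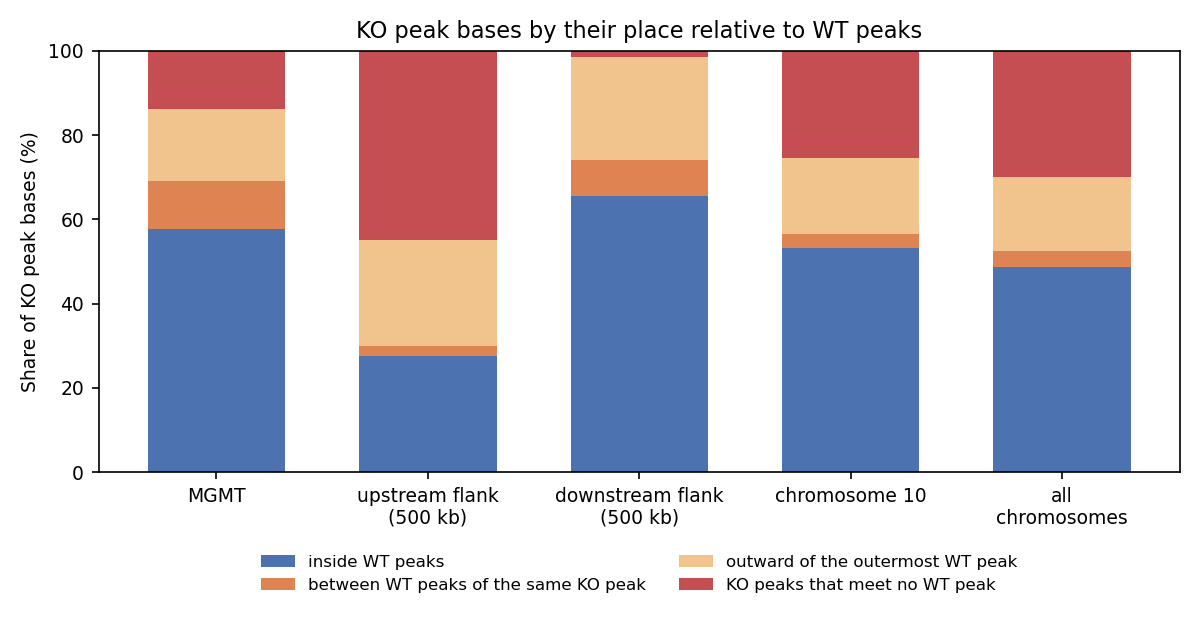
Share of KO peak bases (%) that lie inside WT peaks, between WT peaks met by the same KO peak, outward of the outermost WT peak met, or in KO peaks that meet no WT peak. MGMT has 11.4% between WT peaks and 13.9% in separate KO peaks, against 3.76% and 29.9% in all chromosomes. The downstream flank has 8.54% and 1.57%, and the upstream flank 2.29% and 45%.

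The flanks of MGMT had fewer peak bases per length than the gene, and the surplus of KO peaks lay upstream. Over 500 kb on the upstream side, KO had 24 peaks with 20417 bases and WT had 11 peaks with 6216 bases, ratios of 2.18 in peaks (1.08 to 4.39) and 3.28 in bases. Over 500 kb on the downstream side, KO had 16 peaks with 19094 bases and WT had 21 peaks with 13508 bases, ratios of 0.76 in peaks (0.402 to 1.44) and 1.41 in bases. The intervals of the 2 sides overlap, and the difference between the sides was not tested. Among peaks at or below the median q-value of both lists, the ratios over both flanks together were 2.90 in peaks and 3.84 in bases, against 1.25 and 2.00 among all peaks. These larger ratios rest on 29 KO and 10 WT peaks. A common q cutoff need not select the same folds in both lists, so they are not read as a larger surplus. Peaks covered 4.08% of the upstream flank in KO and 1.24% in WT, and 3.82% of the downstream flank in KO and 2.7% in WT. The gene body was therefore covered more than either flank in both genotypes. Upstream, 17 of 24 KO peaks met no WT peak, and these held 45% of the KO bases there. Downstream, 1 of 16 KO peaks met no WT peak, and over all chromosomes 31934 of 64598 KO peaks met none. WT peaks met a KO peak at 10 of 11 upstream and at 20 of 21 downstream, beside 79.9% of all WT peaks. KO peaks that met at least 2 WT peaks were 2 of 24 upstream and 4 of 16 downstream, beside 9.31% of all KO peaks. The nearest peaks outside the 500 kb bounds began or ended 1.4 to 8.7 kb beyond them, with folds of 3.14 and 2.74 in KO and 2.90 and 2.96 in WT, and the outermost peaks inside lay 25.9 to 41.6 kb from the bounds.

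Among the neighbours, the protein-coding genes on the downstream side had few peaks or none. EBF3, which encodes a transcription factor of neuronal development, had no peak in its body in KO or WT (chromosome 10, 129835233 to 129964274). GLRX3, the gene of a glutaredoxin of iron-sulfur metabolism, also had none in either list (130136391 to 130180377). C10orf143 had 4 peaks in each list, with 2682 bases in KO and 2304 in WT. The lincRNA AL157832.3, between MGMT and EBF3, had 2 peaks with 2785 bases in KO and 4 peaks with 1880 bases in WT, so its peaks too were fewer in KO and covered more bases. The upstream lincRNA AL391869.1 (129278251 to 129291722) had 5 peaks with 2453 bases in KO, 1 of them in a promoter class, and none in WT. The KO peak of highest fold upstream, 6.71, ended at -109.5 kb from the gene start (129355598 to 129357696, 2099 bp) and met 3 WT peaks.

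Against other genes with many peaks, MGMT stood near the middle by the ratio of bases and higher by the ratio of mean widths. Among the 301 protein-coding genes with at least 10 peaks in each list, 282 (93.7%) had more peak bases in KO than in WT. MGMT ranked 111 by the ratio of bases, 202 by the ratio of peaks, 40 by the ratio of mean widths and 45 by the share of KO peaks that met at least 2 WT peaks. The medians of these genes were 1.44 for bases, 1.14 for peaks, 1.24 for mean width and 14.3% for that share. No more KO than WT peaks together with more KO bases was found at 85 of them (28.2%). On chromosome 10, 12 genes had at least 10 peaks in each list and MGMT ranked 6 by the ratio of bases, between SORCS1 (25804 bases in KO, 14619 in WT) and GRID1 (14264 in KO, 10151 in WT). By the number of peaks MGMT ranked 142 of 4781 protein-coding names with a KO peak and 71 of 4211 with a WT peak, and by peak bases 46 in KO and 60 in WT.

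The genes nearest to MGMT in the pair of log2 ratios of peaks and of bases, measured over the 2 lists by Euclidean distance, were ERC1, PDS5B, PDE10A, WDR27 and PXDNL. ERC1 had 11 peaks in each list, with 8521 bases in KO and 5234 in WT. PDS5B, which encodes a cohesin-associated protein, had 17 in each, with 14945 bases in KO and 9382 in WT. PDE10A, a phosphodiesterase gene, had 16 in each, with 17376 bases in KO and 10964 in WT. None of the 5 had a promoter peak in KO or WT. WDR27 had 23 KO and 22 WT peaks, and PXDNL had 21 KO and 22 WT peaks. MGMT covered more bases than 4 of them in KO, all but WDR27 with 32341 bases, which also had more in WT (20285).

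**Figure D4:**
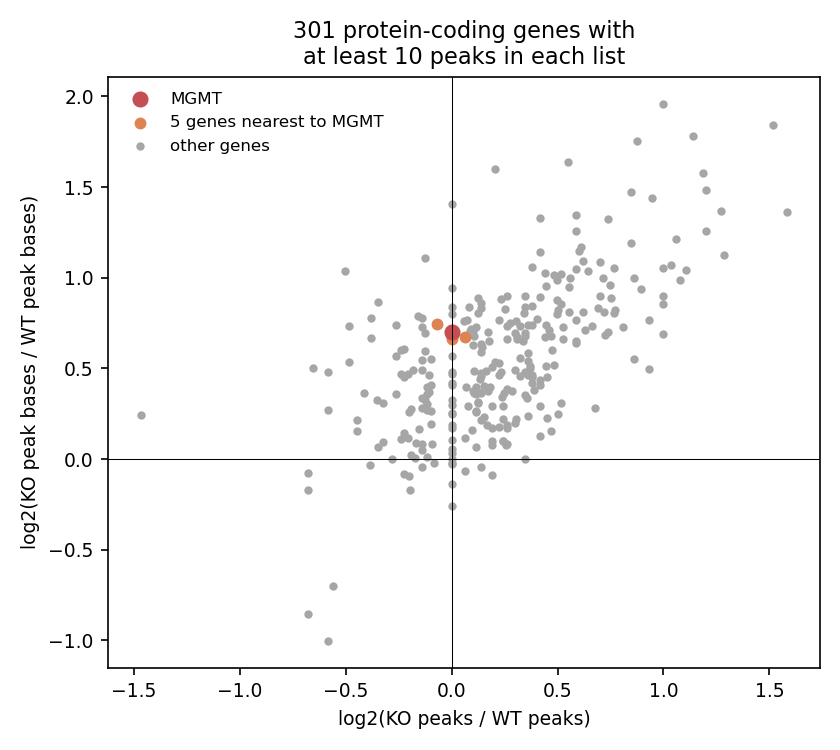
log2 of KO over WT peak bases against log2 of KO over WT peaks for the 301 protein-coding genes with at least 10 peaks in each list. MGMT lies at 0.00 for peaks and 0.70 for bases, with the 5 nearest genes beside it and most other genes above 0 on the vertical axis.

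MGMT had the most peaks among genes of related repair pathways. A peak was assigned to 22.8% of 20033 protein-coding symbols in KO and to 20% in WT. Of 9 genes of direct reversal and alkylation repair, MGMT included, 4 had a peak in KO and the same number in WT (44.4%, 18.9 to 73.3). With MGMT these were FTO, a demethylase of methylated adenine in RNA, with 6 peaks in each list and 3958 bases in KO and 4573 in WT, and ASCC1 and ASCC3 of the ASCC complex, which acts with ALKBH3. ASCC3, the helicase, had 5 peaks in KO and 1 in WT, and ASCC1 had 4 in KO and 2 in WT. ALKBH1, ALKBH2, ALKBH3, ASCC2 and MPG, the glycosylase of alkylated bases, had no peak in either list. All of these 5 are much shorter than MGMT, between 5284 and 49664 bp. Of 10 mismatch repair genes, 5 had a peak in KO and 5 in WT (50%, 23.7 to 76.3). The mismatch repair system recognises the mispairs that unrepaired O6-alkylguanine leaves. MSH4, a meiotic member, had 12 peaks in KO and 9 in WT, with 8480 bases in KO and 4646 in WT. MSH3 had 4 peaks with 5278 bases in KO and 3 with 3013 in WT. PMS1 had 288 bases in KO and 1310 in WT. Of 22 base excision repair genes, 1 had a peak in KO and in WT (4.55%, 0.807 to 21.8). This was NEIL3, the longest of them at 61395 bp against 303743 bp for MGMT in RefSeq, with 4 in each list and 2076 bases in KO and 2360 in WT. The median difference of bases was 0 in each of these lists, where 5 of 9, 5 of 10 and 21 of 22 genes had no assigned peak. That median therefore says little about the genes with a peak. KO had more bases at 3, 4 and 0 genes of the lists, and fewer at 1 in each.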

How the data were processed

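H3K9me3 ChIP-seq was made from 293T cells with 3 ChIP and 3 input libraries per genotype, grouped by their titles. Per the submitters' processing notes, HISAT2 and hg38 were used. Not given in the sources used here are the peak caller with its settings, the role of input and how replicates were pooled. The authors deposited 1 annotated peak list per genotype. Its fold enrichment is a ratio deposited by the authors, and its q-value is the authors' adjusted p for a peak within its list. Neither header defines its column. Positions were read as counted from 1. Peaks on chromosomes 1 to 22, X and Y were compared. A peak met another by sharing at least 1 bp. Overlap and base splits used Python 3.11.15 with pandas 2.3.3 and were tested on simulated intervals. Wilson 95% intervals came from statsmodels 0.14.6. Gene bodies, symbols and promoter sequences came from RefSeq tables (GRCh38.p14).

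MGMT, the gene lists and the alternatives were chosen with earlier results of these data known. Named genes were the genes within 500 kb, up to 4 repair genes per list by the difference in peak bases, and the 5 genes nearest to MGMT by log2 ratios of peaks and bases. Some members of the repair lists are not reported here by name. Repair genes named beyond the rule, and SORCS1 and GRID1, were chosen after their values were seen. The planned edgeR test of reads at MGMT was not run, since the lists hold no counts per library. Alternatives were tried in thresholds, list length, overlap, joining of peaks, gene assignment and flank width.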

Additional observations from a re-analysis of the deposited data

How the results depend on the processing

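Of 52 alternatives over 11 results, 41 kept the value within its interval, or within 1.5 times for a count, 11 moved it and none took a ratio from above to below 1, apart from the ratio of peaks in MGMT, which stood at 1.00. With both lists held to their common median fold (3.69) or more, 61.5% of WT peaks of MGMT met a KO peak, 1 KO peak met at least 2 WT peaks and 0 WT peaks met at least 2 KO peaks. Among peaks at or below the median q-value (1.7e-07), 1 KO peak met at least 2 WT peaks and 1 WT peak at least 2 KO peaks, and the flanks had ratios of 2.90 for peaks and 3.84 for bases. This common q cutoff need not select the same folds in both lists. Requiring an overlap of 50% of each peak, 21.1% of WT and 21.1% of KO peaks of MGMT were shared. When peaks within 1 kb counted as meeting, 78.9% of KO peaks met a WT peak, 9 KO peaks met at least 2 WT peaks and 8 WT peaks met at least 2 KO peaks. The merging counts thus depend on the threshold and on the distance allowed. No share over all peaks is given for these alternatives. The ratio of bases in MGMT lay between 1.33 and 1.91, that of peaks between 0.69 and 1.56 and that of mean widths between 1.23 and 1.92. With lists of 46898 peaks each, MGMT had 17 KO and 19 WT peaks and a ratio of bases of 1.59. Joining peaks at 5 or 20 kb gave 7 or 5 clusters, alternatives chosen after seeing the data. No paired analysis was possible because the lists hold no value per library, and leaving out replicates was not run for the same reason. The depth behind each peak is unknown, so a place without a peak may be marked below the limit of detection.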

Other observations

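Elsewhere on chromosome 10, beyond 500 kb from MGMT, the long genes among the neighbours listed had peaks in both lists with more bases in KO. DOCK1, which encodes an activator of the small GTPase RAC1, had 9 peaks with 8259 bases in KO and 3 peaks with 3898 bases in WT. TCERG1L had 9 peaks with 7361 bases in KO and 5 with 3419 in WT, and PTPRE, a receptor-type tyrosine phosphatase gene, had 3 with 2984 in KO and 2 with 2285 in WT. The shorter genes MKI67, which encodes the proliferation marker Ki-67, CLRN3 and FOXI2 had no peak in either list. None of these genes had a promoter peak in KO or WT, which MGMT shares. For MKI67, CLRN3 and FOXI2 this follows from having no peak. With EBF3 and GLRX3, 3 of the 8 neighbouring genes listed had a peak in KO and 3 in WT (37.5%, 13.7 to 69.4). Over all protein-coding symbols the shares were 22.8% in KO and 20% in WT, both inside this interval.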
